A study of Homo sapiens with 2 samples.

Results

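Distal SOX9 peaks that carry an isolated copy of the SOX9 half-site were examined in HT-29 cells, an established human colorectal cancer line. A peak was a member when its summit lay more than 3 kb from every GENCODE transcription start site (TSS), when the 7-bp half-site WWCAAWG (W stands for A or T) occurred without mismatch within 100 bp of the summit on either strand, and when no inverted repeat of it with a 4-bp spacer was present. An inverted repeat counted when 1 copy was exact and the other had at most 2 mismatches. Of 17847 SOX9 peaks, 6706 were distal, and 1936 of these were members, which is 28.9% of the distal peaks (Wilson 95% interval 27.8% to 29.97%). Another 476 distal peaks held the paired arrangement, and 4294 held no half-site. The data come from 1 chromatin immunoprecipitation (ChIP) library made with an antibody to endogenous SOX9 (Millipore AB5535) and 1 input library, both from cells fixed with formaldehyde. With 1 library of each kind no value has a replicate error, peaks are not replicates, and no test between groups of peaks was made. Intervals cover counting error only, and nothing below is shown to be particular to these peaks.

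SOX9 is a transcription factor of the SOX family that binds the minor groove of DNA through its HMG box and bends it. A monomer covers 1 half-site, whereas SOX9 and its close relatives can also bind as dimers to a pair of facing half-sites, an arrangement well known from cartilage enhancers. In the intestine SOX9 is made in the lower crypt, in stem and progenitor cells and in Paneth cells, and its gene responds to Wnt signalling.

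The sequences around the half-site are shown for 9 of the members with the most tags. Tags moved with the regional input signal, so these are not the strongest members by fold enrichment over the local input. Their fold ran from 15.37 at ABTB2 to 48.98 at TH, whereas the highest of all members was 79.87, near ACAA2. Each runs 5′ to 3′ on the strand that reads WWCAAWG, in build GRCh37 (hg19), with the copy nearest the summit in capitals. The name is that of the protein-coding gene with the nearest TSS, which is a position and not a target.
CEBPB, chr20:48859756-48859812, minus strand: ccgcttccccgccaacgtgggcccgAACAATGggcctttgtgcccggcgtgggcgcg
TH, chr11:2232482-2232538, minus strand: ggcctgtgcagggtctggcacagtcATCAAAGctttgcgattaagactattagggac
CALML3, chr10:5590084-5590140, plus strand: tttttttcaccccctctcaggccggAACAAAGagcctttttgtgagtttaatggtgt
LSMEM1, chr7:112212866-112212922, minus strand: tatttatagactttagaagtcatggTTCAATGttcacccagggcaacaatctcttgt
SSPN, chr12:26392613-26392669, minus strand: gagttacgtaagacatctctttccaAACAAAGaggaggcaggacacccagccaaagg
DLGAP1, chr18:3665896-3665952, minus strand: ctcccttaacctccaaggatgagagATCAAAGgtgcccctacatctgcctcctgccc
INHBA, chr7:41287306-41287362, minus strand: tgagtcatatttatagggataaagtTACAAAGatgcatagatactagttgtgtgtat
GATA3, chr10:8585634-8585690, minus strand: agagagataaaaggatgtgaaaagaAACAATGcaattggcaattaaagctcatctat
ABTB2, chr11:34367730-34367786, minus strand: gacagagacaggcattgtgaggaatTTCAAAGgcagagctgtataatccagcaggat

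A further set is shown because it bears on the word single. These 6 members are among those of highest fold enrichment in which a second exact copy faced the first at a spacer of 3 or 5 bp, spacings that the rule does not bar. Both copies are in capitals, on the plus strand of GRCh37. The RASL11B site lies in the last exon of SCFD2 and is given with fewer neighbouring bases.
RASL11B, chr4:53739527-53739555, spacer 5 bp: gctagAACAATGcagtcCTTTGTTatggc
EGLN3, chr14:34493597-34493639, spacer 5 bp: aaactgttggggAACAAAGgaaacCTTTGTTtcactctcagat
DHRS12, chr13:52263843-52263883, spacer 3 bp: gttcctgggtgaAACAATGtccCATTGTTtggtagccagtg
TSPAN8, chr12:71557065-71557107, spacer 5 bp: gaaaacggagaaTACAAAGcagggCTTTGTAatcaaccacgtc
ROBO1, chr3:80162714-80162756, spacer 5 bp: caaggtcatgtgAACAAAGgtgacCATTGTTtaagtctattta
ARSJ, chr4:115186165-115186205, spacer 3 bp: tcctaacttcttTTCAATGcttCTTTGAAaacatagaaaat

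By fold enrichment, distal peaks with a single half-site were of ordinary strength, and by tags they lay below SOX9 peaks as a whole. Their median was 36 ChIP tags per peak (quartiles 25 and 53, range 12 to 820). Their median fold enrichment over the local input was 11.11 (interval 10.95 to 11.43). All SOX9 peaks had a median of 45 tags (45 to 46) and a median fold of 10.39 (10.32 to 10.48). Distal peaks without a half-site had a median of 35 tags. Paired distal peaks reached a fold enrichment of 14.29 (13.8 to 15.39), and distal peaks without a half-site 10.5 (10.34 to 10.71). The members therefore lay much closer to the peaks without a half-site than to the paired ones. A fold enrichment of 20 or more was found for 199 members (10.3%, 9.004% to 11.71%), against a background of 10.3% of all SOX9 peaks, 28.8% of the paired distal peaks and 6.47% of those without a half-site. On the −10 log10 p scale that MACS uses, a score of 100 or more was reached by 1195 members (61.7%), against 68.2% of all SOX9 peaks and 57.7% of the distal peaks without a half-site.

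The signal maps, in which each bin of 32 nt holds the number of extended tags over it, showed the same order. At the summit the mean SOX9 signal was 21.8 extended tags per bin in the members, where the mean input signal was 2.62. The paired peaks had 29.4 and 2.34, and the peaks without a half-site had 20.3 and 2.78. All 3 profiles fell to the midpoint of their height over the same width of 224 bp, and the members were down to 1.75 tags per bin at 992 bp from the summit. The summits given by MACS lay a median of 10.5 bp from the bin of highest SOX9 signal, which sets how finely distances to the summit can be read.

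**Figure D1:**
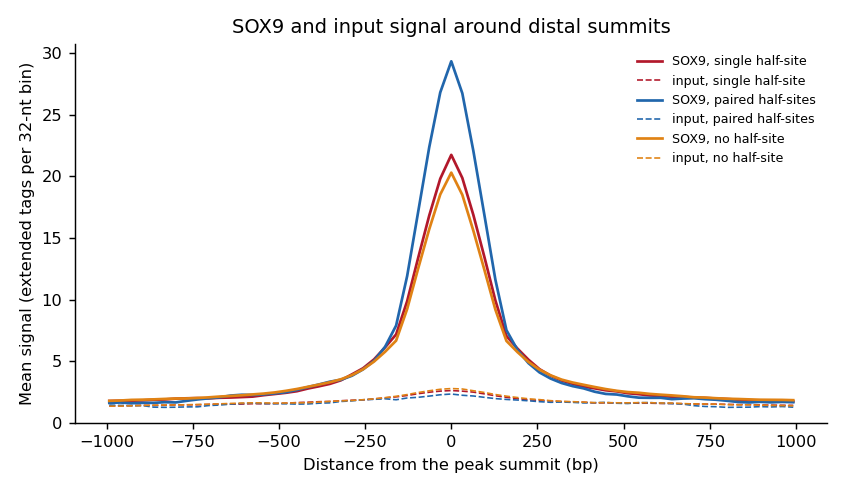
Mean SOX9 signal (solid) and input signal (dashed) in extended tags per 32-nt bin against distance from the summit in bp, for distal peaks with a single half-site (red), paired half-sites (blue) and no half-site (orange). The red curve peaks at 21.8, just above the orange one at 20.3 and below the blue one at 29.4, over input curves between 2.34 and 2.78.

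A half-site of this length is common in the genome. In windows of the same length placed 1 kb to either side of the distal summits, the single half-site rule was met by 2866 of 13412 (21.4%, 20.7% to 22.1%), against 28.9% of the distal peaks themselves. These 2866 flank windows are used below to show what the rule alone selects. Only 103 of them (3.59%) were centred inside the interval of a SOX9 peak, which could be the peak they flank. Their median GC content was 39.3%, and that of the members was 42.8%, so base composition differs between the sets, and its part in the shares below was not tested.

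The word single describes the members only in part. Exactly 1 copy of WWCAAWG within 100 bp was found in 1503 members, whereas 365 held 2 copies, 59 held 3, 8 held 4 and 1 held 5. Thus 433 members (22.4%, 20.6% to 24.3%) had 2 or more exact copies, against 14.2% of the flank windows (13.005% to 15.56%). Copies in the same orientation up to 20 bp apart were found 75 times in members, or 38.7 per 1000 windows, against 24.1 per 1000 flank windows. For facing copies up to 20 bp apart the figures were 56 pairs, or 28.9 per 1000, against 6.98 per 1000, a wider gap. Copies placed back to back at this range came to 19.6 and 9.77 per 1000.

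Facing copies gathered at spacers directly next to the barred one. Of the 56 facing exact pairs, 17 had a spacer of 3 bp and 13 a spacer of 5 bp, while the flank windows, although more numerous, held 1 pair at each. No other spacer up to 14 bp held more than 4 facing pairs in the members. Since a spacer of 4 bp is excluded by the rule, its absence from the members is no observation. These 2 spacers were singled out after their values were seen.

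The same spacers stood out when the second copy was allowed mismatches, as the rule for pairs does. A facing copy with at most 2 mismatches lay at 3 bp in 260 members (13.4%, 11.98% to 15.02%), against 8.13% of the flank windows (7.18% to 9.19%). At 5 bp it was found in 255 members (13.2%, 11.7% to 14.8%), against 8.93% (7.94% to 10.0%). At the other 12 spacers from 0 to 14 bp the share in members ran from 7.59% to 9.35%, and in flank windows from 7.92% to 9.80%. With at most 1 mismatch the contrast was steeper, at 4.60% against 1.33% for 3 bp and 4.18% against 1.71% for 5 bp. Back-to-back copies showed no such excess at 3 or 5 bp, where 7.90% and 8.16% of the members had one, against 8.65% and 9.002% of the flank windows. At spacers of 0 and 1 bp they were more frequent in the members, with 11.6% against 8.86% and 9.04% against 6.98%.

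**Figure D2:**
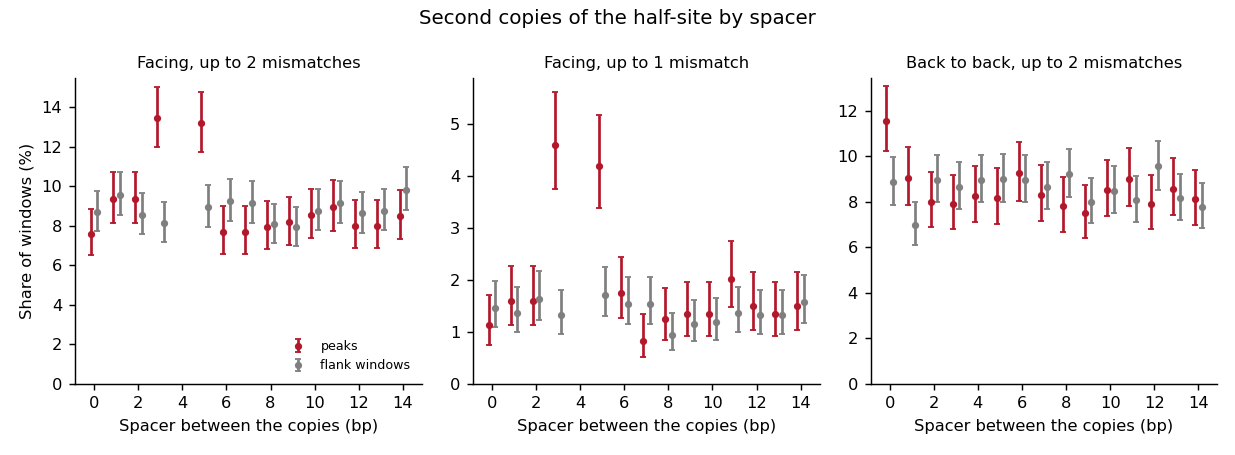
Share of distal SOX9 peaks with a single half-site (red) and of flank windows (grey) that hold a second copy at each spacer in bp, for facing copies with up to 2 mismatches (left), facing copies with up to 1 mismatch (middle) and back-to-back copies with up to 2 mismatches (right). Error bars are Wilson 95% intervals, and the 4-bp spacer is left out for facing copies because the rule excludes it. The red points at 3 and 5 bp, 13.4% and 13.2% on the left, stand above all other facing spacers.

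In all, 478 members (24.7%, 22.8% to 26.7%) had a facing copy at 3 or 5 bp with at most 2 mismatches, 37 of them at both spacers, against 16.54% of the flank windows (15.2% to 17.9%). The subset grew with fold enrichment, which the rule did not use. From the lowest to the highest quartile of fold enrichment the share was 18.6%, 21.9%, 23.8% and 34.5%, and among the 100 members of highest fold it was 53% (43.3% to 62.5%). With at most 1 mismatch it went from 4.13% in the lowest quartile to 15.9% in the highest and 35% in the top 100. Of the 30 members with an exact facing copy at these spacers, 18 were in the highest quartile.

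**Figure D3:**
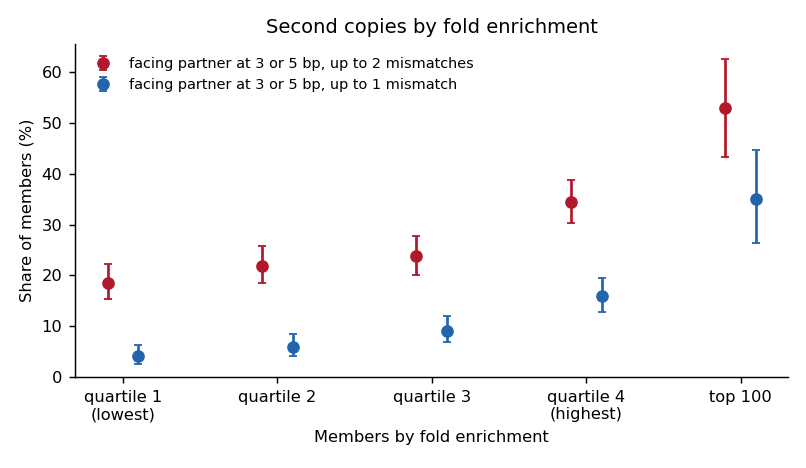
Share of members with a facing second copy at 3 or 5 bp, by quartile of fold enrichment and in the 100 members of highest fold. Points are shares with up to 2 mismatches (red) or up to 1 mismatch (blue), and error bars are Wilson 95% intervals. The red share climbs from 18.6% to 34.5% over the quartiles and is 53% in the top 100.

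Members with such a facing copy had a median fold enrichment of 12.29 (interval 11.75 to 12.86), and those without it 10.86 (10.71 to 11.11), close to the 10.5 of distal peaks without any half-site. An exact facing copy went with 18.60 (12.86 to 21.43, n = 30), a value near that of the 34 distal peaks with 2 exact copies at the 4-bp spacer, 19.995 (14.78 to 25). For a facing copy at any of the other 12 spacers from 0 to 14 bp the median fold lay between 10.74 and 11.91. The median number of tags was 36 both without a facing copy at 3 or 5 bp (35 to 37) and with 1 of at most 2 mismatches. With at most 1 mismatch it was 43 (36 to 50), and with an exact copy 49 (34 to 70).

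The 30 exact pairs lay near genes of several kinds. The strongest by fold enrichment was the site 11.1 kb from the TSS of RASL11B, a small Ras-like GTPase gene, with 115 tags, a fold of 53.13 and a SOX9 signal of 89 against an input signal of 4. The site in an intron of EGLN3, which encodes a prolyl hydroxylase of the hypoxia response, had 79 tags at a fold of 50. A site with 87 tags stood at 35.72 in an intron of WDFY2, 100.3 kb from DHRS12. An intron of TSPAN8, a tetraspanin gene, held 145 tags at 26.05. Further down the list, and picked out here after their values were seen, were sites in introns of YAP1 (57 tags, fold 20.6) and TEAD1 (52 tags, fold 6.75), which encode partner proteins of the Hippo pathway, and 1 at 42.6 kb from LEF1 (22 tags, fold 12.7), a Wnt effector gene. The 30 ranged from a fold of 6.59 to 53.13, and 14 of them reached 20 or more, so not every exact facing copy went with a high value.

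Half-sites gathered at the summit only weakly. The copy nearest the summit was centred within 25 bp of it in 689 members (35.6%, 33.5% to 37.7%), against 30.1% of the flank windows (28.4% to 31.8%), and the median distance was 39 bp against 44 bp. Since the nearest of several copies is closer by choice, all copies were counted as well, and 30.5% of those in members were within 25 bp, against 26.9% in flank windows. In the highest quartile of fold enrichment 43.0% of the members had a copy within 25 bp, and in the lowest quartile 29.96%.

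Counted over all strings of WWCAAWG together, this excess near the summit was seen in members with a facing copy. Among the 478 with a facing copy at 3 or 5 bp, 52.5% (48.0% to 56.9%) had a half-site within 25 bp of the summit, against 34.2% (30.05% to 38.6%) of the flank windows with such a copy. Among the other 1458 members the share was 30.04% (27.7% to 32.4%), and in the matching 2392 flank windows it was 29.3% (27.5% to 31.1%). In these 1458 members the position of the half-site, over all strings, thus differed from that in flank windows by less than its counting interval. For AACAAWG alone, a nearest copy within 25 bp was found in 12.5% of them (10.9% to 14.3%) and 9.24% of the matching flank windows (8.14% to 10.5%). The 478 held 2 or more half-sites in 36.2%, their flank windows in 25.1%, and the nearest of several is closer by choice. AP-1 sites, treated further on, were found in 24.3% of the same 1458 members and 4.14% of the matching flank windows. In the 478 with a facing copy the share was 19.04%, against 4.22% of their flank windows. The AP-1 excess over flank windows was thus present with and without a facing copy.

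**Figure D4:**
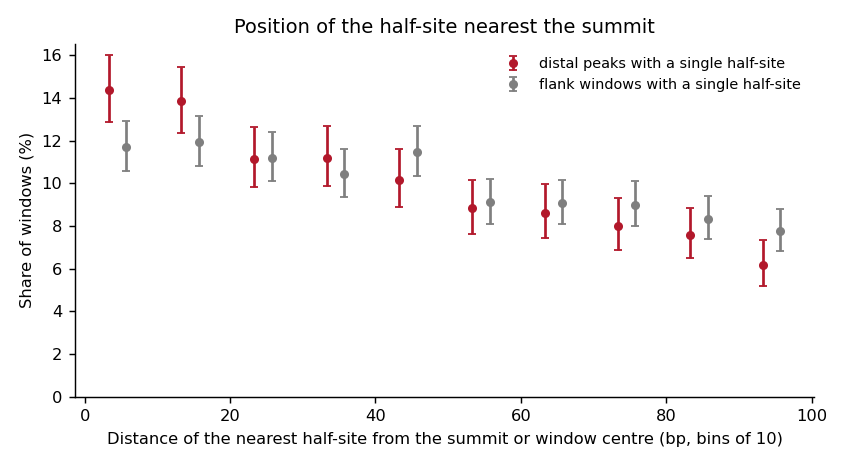
Share of distal SOX9 peaks with a single half-site (red) and of flank windows (grey) by the distance of the nearest half-site from the summit or window centre, in bins of 10 bp. Error bars are Wilson 95% intervals. The first bin, 0 to 9 bp, holds 14.4% of the peaks and 11.7% of the flank windows, and the intervals overlap in every bin.

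The 8 strings that WWCAAWG covers were used unequally, and the rule does not choose among them. Counting the copy nearest the summit, AACAAAG was found in 481 members (24.8%, 22.97% to 26.8%), against 18.0% of the flank windows (16.6% to 19.4%). AACAATG, which differs from it at 1 base, made up 17.3% (15.7% to 19.1%) against 13.5% (12.3% to 14.8%). ATCAAAG made up 15.0% (13.5% to 16.6%) against 9.87% (8.84% to 11.02%), the highest ratio of the 8, 1.52. At the other end, TTCAATG made up 5.01% against 10.2%, and the ratio was 0.642 for ATCAATG, which was thus less frequent in members. Likewise it stood at 0.670 for TACAATG. For TACAAAG it was 0.740. TTCAAAG was about as frequent in members (16.7%) as in flank windows (18.0%).

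Grouped by their letters, the strings differed in how their shares went with distance and fold. AACAAWG, the core usually given for SOX proteins, made up 42.1% of the members (40.0% to 44.4%) and 31.4% of the flank windows. Within 25 bp of the summit its share was 48.8% (45.1% to 52.5%) against 31.8%, and in paired distal peaks 57.1%. From the lowest to the highest quartile of fold its share went from 37.8% to 51.2%, and in the 100 members of highest fold it was 59%. WTCAAAG, which holds the core of the TCF/LEF site, made up 31.7% of the members (29.7% to 33.8%) and 27.8% of the flank windows, and 14.9% of the paired peaks. Within 25 bp of the summit it made up 27.4% of the members (24.2% to 30.9%) and 28.7% of the flank windows. Its share went the other way with fold, from 37.2% in the lowest quartile to 23.3% in the highest and 16% in the top 100. An AACAAWG copy within 25 bp of the summit went with a median fold of 12.64 (11.91 to 13.39, n = 336) and a WTCAAAG copy at that distance with 10.71 (10 to 11.54, n = 189). Without a facing copy at 3 or 5 bp the first of these values was 11.47 (10.96 to 12.37, n = 182). The WTCAAAG value was not recomputed without such copies, so the gap between like sets was not measured.

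Bases next to the half-site differed too. A purine stood before AACAAWG in 70.3% of the members whose nearest copy it was (67.1% to 73.4%), against 61.6% of the flank windows, and G followed it in 30.8% against 22.6%. For WTCAAAG the longer string ASWTCAAAG (S stands for C or G), a common form of the TCF/LEF site, accounted for 184 of 614 copies (29.97%, 26.5% to 33.7%) in members and 13.3% (11.1% to 15.8%) in flank windows. TCF/LEF proteins carry an HMG box as SOX proteins do, and their site contains a SOX half-site by its letters, so such a member cannot be assigned to either from its sequence. By fold enrichment, the strongest named member of this kind was the one in FGGY.

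**Figure D5:**
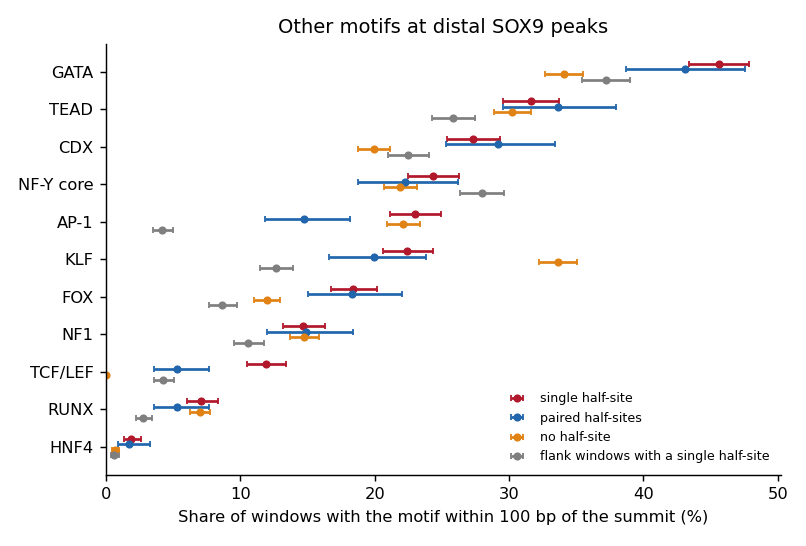
Share of windows with each motif within 100 bp of the summit in percent, for distal peaks with a single half-site (red), paired half-sites (blue) and no half-site (orange) and for flank windows with a single half-site (grey). Error bars are Wilson 95% intervals. AP-1 shows the widest distance between members (22.99%) and flank windows (4.15%) among the motifs drawn.

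Sites of other factors were searched on both strands within 100 bp, by their letters alone. The AP-1 site TGASTCA, bound by FOS and JUN proteins, was present in 445 members (22.99%, 21.2% to 24.9%), against 4.15% of the flank windows with a single half-site (3.48% to 4.95%) and 3.93% of all flank windows. Its share was 22.1% in distal peaks without a half-site and 14.7% (11.8% to 18.2%) in the paired ones. In the members that held both, the AP-1 site was the closer of them to the summit in 235 of 445 (52.8%, 48.2% to 57.4%), and the median gap between their centres was 44 bp (quartiles 22 and 83). The median fold enrichment was 11.11 both with and without an AP-1 site, and the AP-1 share was 23.6% in the lowest quartile of fold and 22.3% in the highest. In the sequence near INHBA an AP-1 site, tgagtca, opens the printed stretch.

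Strings of other factors were also counted. The forkhead string TRTTTAC (R stands for A or G) was found in 18.4% of the members (16.7% to 20.2%), 18.3% of the paired peaks, 11.97% of the distal peaks without a half-site and 8.65% of the flank windows. The GATA string WGATAR occurred in 45.6% of the members, 34.0% of the distal peaks without a half-site and 37.2% of the flank windows. For the CDX string TTTATKR (K stands for G or T) the shares were 27.3%, 19.9% and 22.5%. HNF4 sites, CAAAGTCCA, were rare, in 36 members (1.86%) against 0.593% of the flank windows. The whole TCF/LEF string was present in 230 members (11.9%) and 4.22% of the flank windows, and it cannot occur in peaks without a half-site, whose letters it contains. RUNX strings (TGTGGTTW) reached 7.08% against 2.76%, and the KLF string CCRCCC 22.4% against 12.6%, with 33.6% in the GC-richer distal peaks without a half-site. The bare NF-Y core CCAAT was found in 24.3% of the members and 27.9% of the flank windows, and the fuller string RRCCAATSR in 52 members (2.69%), against 1.92% of the flank windows and 3.03% of the distal peaks without a half-site. Fold enrichment varied little with any of these, between 10.97 and 11.91 among members with a GATA, forkhead, CDX, KLF, RUNX or TCF/LEF string.

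Members lay mostly in introns and between genes. Their summits fell in introns in 1079 cases (55.7%, 53.5% to 57.9%), between genes in 760 (39.3%), in exons in 70 and within 3 kb downstream of a protein-coding gene in 27. Distal peaks without a half-site were close to this, with 53.1% in introns and 40.6% between genes. The 1079 intronic members belonged to 870 genes with a median length of 195 kb. The nearest TSS of any transcript was a median of 16044.5 bp away (14911 to 17340 bp), against 12539.5 bp for distal peaks without a half-site (12073 to 13027 bp) and 14200.5 bp for paired ones. Beyond 30 kb lay 25.2% of the members up to 100 kb and 3.77% farther still. Fold enrichment changed little with this distance, from 11.11 at 3 to 10 kb to 12.52 (11.11 to 13.68) in the 73 members beyond 100 kb. At the 3-kb limit the first members inside stood at 3001 bp (37 tags, fold 8.93, near HK2) and 3003 bp (70 tags, fold 10.71, near CHST12), and the first peaks left out at 2999 bp (26 tags, fold 9.43) and 2984 bp (25 tags, fold 12.22). At the limit of the search window the 13 members whose copy was centred 97 bp away had a median of 33 tags and a fold of 11.91, and the 10 distal peaks with one at 98 bp had 32 tags and a fold of 9.01.

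Tag counts moved with the regional input signal, used here as a stand-in for DNA copy number, which was not measured. In 330 members (17.0%) the surrounding 1 Mb window had a mean input signal over 1.5 times the autosomal median. Their median was 56 tags at a fold of 9.57 (9.14 to 10.08), whereas the other 1606 had 34 tags at a fold of 11.54 (11.22 to 11.79). Of the 20 members with the most tags, 17 lay in such windows and 10 on chromosome 8, where MYC lies. Of the 20 with the highest fold enrichment, 2 lay in such windows and none on chromosome 8. Tags and input ratio had a Spearman rho of 0.404 over the 1936 members, and fold and input ratio −0.259. Both are given as descriptions, since tags and input share the same DNA. Ranks by tags and by fold are therefore given side by side for the named sites.

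By tags, the first member lay in an intron of the noncoding RNA gene PCAT1 on chromosome 8, with 820 tags, a SOX9 signal of 146 and an input signal of 16, and its fold was 16.17. Its window had the highest input ratio among the members, 4.75. The interval of this peak spanned 5874 bp, the longest of all members (median 699 bp), and tags are counted over the whole interval.

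The site near CEBPB, which encodes a bZIP transcription factor, was the highest of all members in SOX9 signal, 183 against an input of 9. Its peak (chr20:48858944-48860398) held 318 tags at a fold of 43.88 and lay 52.4 kb downstream of the TSS of CEBPB, with PTPN1 next on the other side at 267 kb. A facing copy with 1 mismatch lay 3 bp from its half-site, as the printed sequence shows. Near TH, the gene of tyrosine hydroxylase, the peak chr11:2232009-2233076 held 262 tags at a fold of 48.98, with a signal of 152 against 8. The TSS of TH was 39.5 kb away, and on the other side that of ASCL2, a bHLH factor of intestinal stem cells, was 59.3 kb away. Its half-site ATCAAAG was centred 57 bp from the summit and had no facing copy at 3 or 5 bp.

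Further sites with many tags lay both in introns and between genes. In the region of INHBA, which encodes a subunit of activin and inhibin, the peak stood 453 kb from the TSS with 195 tags at a fold of 47.32 and a signal of 112 against 7. The site 485 kb from GATA3, a zinc finger factor gene, had 194 tags at 26.47. Near CALML3, a calmodulin-like gene, the peak held 261 tags at 22.32. In introns of SSPN and DLGAP1 the values were 208 tags at 23.93 and 206 tags at 21.43, with the TSS of TGIF1, a repressor of TGF-β signalling, 210 kb from the latter. Sites at LSMEM1 and ABTB2 held 218 and 186 tags at 18.07 and 15.37. Of the 20 members with the most tags, 6 had a facing copy at 3 or 5 bp with at most 2 mismatches, against 24.7% of all members.

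The 5 members of highest fold among those with at least 50 tags, other than the 20, lay in windows without raised input. The site 87.6 kb from ACAA2, a mitochondrial thiolase gene, led with 79.87 (147 tags, signal 85 against 3). Next came the intronic site 3.16 kb from a TSS of FGGY at 74.74 (176 tags, signal 96 against 3), where the half-site was part of a TCF/LEF string. The sites near NFIX (56.12, 66 tags), RASL11B (53.13, 115 tags) and RNF165 (50.09, 57 tags) followed. NFIX encodes a nuclear factor I protein and RNF165 a ubiquitin ligase. In 3 of the 5 a facing copy with at most 2 mismatches lay at 3 or 5 bp, and only that at RASL11B was exact. Such a copy was found in 24.7% of all members and 16.54% of the flank windows. The sequences of 3 of them are given on the minus strand, or the plus strand for NFIX, with the nearest half-site in capitals, because they show strong sites at low input.
ACAA2, chr18:47250284-47250340: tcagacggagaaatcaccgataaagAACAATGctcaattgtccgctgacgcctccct
FGGY, chr1:60022713-60022769: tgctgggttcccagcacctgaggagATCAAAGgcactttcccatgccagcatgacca
NFIX, chr19:13094374-13094430: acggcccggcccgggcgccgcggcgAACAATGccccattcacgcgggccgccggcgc

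Members came near 1439 protein-coding genes, 7.27% of the 19794 annotated, when each was given to the nearest protein-coding TSS, at a median distance of 51.9 kb. For 1108 of these genes there was 1 member. No gene had more than 6 members, and 6 genes had that many. They were TRPS1, KLF5, BMP4, OSR1, SLC10A2 and KLF6. In this order, 13, 22, 11, 7, 9 and 13 distal SOX9 peaks of any kind were nearest to them. Members made up 28.9% of all distal peaks, so a count of 6 also follows the number of distal peaks near a gene. KLF5 and KLF6 encode Krüppel-like factors, BMP4 a ligand of the BMP pathway, and TRPS1 and OSR1 zinc finger factors of development. The 6 members at BMP4 stood between 5.18 and 147 kb from its TSS with 23 to 117 tags, and those at KLF5 between 31.6 and 393 kb with 24 to 120 tags. SLC10A2, a bile acid transporter gene, owed its count to a region beyond 813 kb. Steps of at most 50 kb joined 455 members into 207 runs, of which 32 held 3 or more. The run with the most members, 6 over 137 kb, had DLGAP1 and TGIF1 as nearest genes and an input ratio of 1.86. Its sites with 206, 166 and 97 tags lay in introns of DLGAP1.

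Gene lists for the gut and for pathways linked to SOX9 are given as counts beside the 7.27% background. That background takes no account of how many distal SOX9 peaks lie near a gene. Of 30 BMP and TGF-β genes, 14 (46.7%, 30.2% to 63.9%) were nearest to at least 1 member, with BMP4 (117 tags, fold 33.93), TGIF1 (97 tags, 10.45), SMAD6 (94 tags, 8.87) and ID2 (78 tags, 12.25) first by tags. Among 33 Wnt pathway genes 12 (36.4%) had one. First by tags was AXIN1 (125 tags, fold 13.77), a scaffold of the β-catenin destruction complex, followed by ZNRF3 (123 tags, fold 26.19), a ligase that removes Wnt receptors. The site nearest to the Wnt ligand gene WNT11 held 119 tags at 18.65. TLE1, a corepressor of TCF, had a site with 110 tags at 33.33. For intestinal stem and crypt genes the count was 7 of 20 (35%), with EPHB2 at 49 tags and CD44 at 43, besides ZNRF3 and SOX9 itself. The stronger of the 2 members at SOX9 lay 292 kb downstream of the TSS in an intron of LINC00511, with 88 tags at a fold of 17.51.

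Differentiated intestinal cell genes had 1 of 23 (4.35%, 0.772% to 20.99%), CHGA, the chromogranin A gene of enteroendocrine cells, with 65 tags. The EGF receptor and ERK list had 8 of 26 (30.8%), led by SPRY1 (77 tags) and DUSP6 (74 tags), both feedback inhibitors, and including EGFR (54 tags). Gut and epithelial transcription factors had 7 of 25 (28%), with 20 members in all at a median fold of 16.2. Among these genes were MYC (309 tags, fold 7.99) and KLF5 (120 tags). The site with 309 tags lay 817 kb from the TSS of MYC, in an intron of LINC00824. Its window had an input ratio of 3.65. The KLF5 site lay 267 kb from the TSS. In the remaining lists the counts were 5 of 29 for adhesion and cytoskeleton genes (KRT8 with 52 tags, TJP1 with 51, CLDN1 with 47), 3 of 19 for the SOX family (SOX9, SOX6, SOX4), and 3 of 19 for cartilage targets of SOX9 (CHST11, SOX6 and WWP2, with 25 to 35 tags). A list that the study itself drew up on these peaks, genes given as carrying SOX motifs, had 4 of 14 (SMAD3, LRP5, LRP6 and SASH1). That list is not independent of the data. Near the genes of these lists, members were 27 of 73 distal peaks for BMP and TGF-β, and 17 of 56 for Wnt. They were 10 of 29 for stem and crypt, 17 of 54 for EGF receptor and ERK, and 20 of 78 for gut factors. Differentiated cells had 1 of 11, adhesion 5 of 29, the SOX family 4 of 18 and cartilage 3 of 9. The study's list had 7 of 20. Over all distal peaks the share was 28.9%, so these counts also follow the number of distal peaks near a gene. Genes in wide intergenic regions are nearest to more sites of any kind, and no length or spacing was taken into account. These shares therefore describe positions and do not set the lists apart from other genes of like surroundings.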

How the data were processed

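SOX9 ChIP and input DNA of HT-29 cells were sequenced in 1 library each. As the study's methods describe, the authors aligned reads to hg19 with BWA, kept unique alignments without duplicates, and reduced the input to the ChIP size, which left 12320108 tags in each library. Peaks were called with MACS (p cut-off 1e-07) against the input. In the deposited peak table, tags are counts of ChIP tags per interval. The deposited score is −10 log10 of the MACS p-value, and the deposited fold is a ratio, the ChIP tags over those the local input predicts. The deposited FDR, in percent, was not used. The deposited signal maps count extended tags per 32-nt bin, with no further normalization. The labels give DMEM and the methods McCoy's 5A as the medium.

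From these files, summits were placed on GENCODE release 44 mapped to hg19, and motifs were searched in the GRCh37 sequence on both strands. The half-site had to lie wholly within 100 bp of the summit. Flank windows of equal length were centred 1 kb to either side. Copy number was approximated by the mean input signal in 1 Mb windows, in place of the median first planned, because the median of such bins is a whole number. Named sites are the 20 members with the most tags, the 5 of highest fold with at least 50 tags outside these, up to 3 genes per list by tags, the genes with the most members and the peaks at the limits. For some lists 1 more gene is given. Of the 20, 9 off chromosome 8 have their sequence printed. Some named sites are not reported here. The sequences of the second set and the spacers of 3 and 5 bp were chosen after seeing the data. The members and lists were chosen with earlier results of these data known. Shares carry Wilson 95% intervals and medians binomial order-statistic intervals. The procedures were tested on simulated sequence. Scripts ran in Python 3.11.15 with pandas 2.3.3, SciPy 1.17.1 and NumPy 2.4.6, and figures were drawn with matplotlib 3.10.9.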

Additional observations from a re-analysis of the deposited data

How the results depend on the processing

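With 1 ChIP and 1 input library, depth and antibody variation cannot be judged, and a peak of 12 tags is near the limit of calling. No paired analysis was possible because each group has 1 library. Each of 7 results was recomputed under 8 alternatives and 1 added after seeing the data, which removes facing copies at spacers of 3 to 5 bp. With a half-site within 50 bp the count fell to 1188 members. The shares were 59.0% within 25 bp, 13.8% with 2 or more copies and 13.1% with AP-1, these 3 fixed in part by the smaller window. The share of AACAATG was 19.4%, against 17.3% in the main setting. Farther than 10 kb from a TSS there were 1284 members, 51.7% of them in introns. With a score of 100 or more there were 1195, with a median of 46 tags. Interval midpoints gave 33.1% within 25 bp, 20.4% with 2 or more copies and 20.7% with AP-1. When only exact repeats left the group, 38.7% were within 25 bp and 24.3% had 2 or more copies. Without windows of high input the median was 34 tags. Without facing copies at 3 to 5 bp the shares were 30.04% within 25 bp, 14.5% AACAATG and 17.8% with 2 or more copies. The remaining values stayed within 1.5 times the count or inside the main interval. Flank windows at 2 kb gave 28.4% within 25 bp and 3.06% with AP-1.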

Other observations

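The string searched for CTCF, an architectural zinc finger protein, was present in 22 members (1.14%) and in 0.0349% of the flank windows with a single half-site, while distal peaks without a half-site had 2.52%. Members with it had a median of 29.5 tags and a fold of 10.01.

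Members were spread unevenly over chromosomes. Chromosomes 12 and 20 held the most for their length, 0.911 and 0.857 per Mb, and chromosomes 16 and X the fewest among those with members, 0.266 and 0.309 per Mb. As a share of the distal peaks of a chromosome they made up 16.8% on chromosome 19 and 33.6% on chromosome 2.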
